A study of Mus musculus with 19 samples.

Results

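Subcutaneous tumours of FL8, a mouse cell line, were compared after palbociclib and after vehicle, 5 tumours in each group, which are 10 of the 19 samples of the study. The samples were chosen by their treatment labels, and every gene measured in them was described by function. The study models fibrolamellar carcinoma in mice. This liver cancer of young people carries a fusion that joins DNAJB1, a chaperone gene, to PRKACA, the gene of the catalytic subunit of protein kinase A. The other 9 samples are embryonic livers and were not used here. FL8 cells were set in photo-crosslinked gelatin capsules and implanted under the flank skin of NSG mice, an immunodeficient strain without T, B and NK cells that keeps macrophages, neutrophils, vessels and stroma of its own. All mice carried the same implanted line and entered treatment when tumours averaged 75 mm3. Mice of the palbociclib group received 75 mg/kg by gavage on 3 days in a row and then had 4 days off treatment, and mice of the vehicle group received methocel alone. The sources used here do not state the age or sex of the mice, whether the cycle was repeated, when in it tumours were taken, or whether each tumour came from its own mouse. They also do not say whether FL8 is a single clone or carries the fusion, and the series text speaks of PBS and injections where the sample labels give methocel and gavage. Line and host are both mouse, so host reads cannot be separated from tumour cell reads by species.

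Palbociclib inhibits the kinases CDK4 and CDK6. Together with a D-type cyclin these kinases phosphorylate the retinoblastoma protein RB, which releases E2F transcription factors and lets a cell pass from G1 into S phase. Genes of DNA replication are largely controlled by E2F, while genes of G2 and mitosis are controlled mainly through the cell cycle homology region (CHR) and CCAAT boxes of their promoters, bound by the DREAM, MuvB-B-MYB-FOXM1 and NF-Y complexes. In liver, and in tumours derived from it, the same cells carry out synthesis of cholesterol and fatty acids under the SREBP factors.

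The libraries held 2.96 to 33.9 M reads (M, 1000000) in the vehicle group and 24.9 to 43.1 M in the palbociclib group. A pair of vehicle libraries stood apart. Vehicle tumour 1 had 46.6% of its reads on the mitochondrial genome, while vehicle tumours 2 to 5 had 1.24 to 4.12% and palbociclib tumours 2.68 to 6.47%, and it carried the highest level of macrophage genes. Vehicle tumour 5 had the 2.96 M reads, so that 3 reads correspond to 1.04 CPM (reads per M reads) there and to at most 0.166 CPM elsewhere. Mean mitochondrial shares of 11.4 ± 19.7% (SD, n = 5) and 4.32 ± 1.52% (SD, n = 5) did not differ beyond the spread (exact permutation test, two-sided, p = 0.96, where this design cannot go below 0.00794). Without vehicle tumour 1 the direction turned and the palbociclib mean was 1.73 percentage points higher (exact permutation p = 0.111). For these reasons all levels below are CPM computed without the 17 mitochondrial genes and scaled with TMM factors, and results that rest on tumours 1 and 5 of the vehicle group are also given without them.

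Of 12996 genes tested with limma on log2(CPM + 1), 0 passed an adjusted p of 0.05 (0.0%), and the smallest adjusted p was 0.912. An unadjusted p under 0.05 was reached by 687 genes (5.29%), of which 407 were higher (3.13%) and 280 lower (2.15%) in the palbociclib tumours, where 650 are expected if no gene differs. Fold changes below are palbociclib minus vehicle, in log2 units with their standard error, as differences of log2(CPM + 1), in which low genes appear closer than they are. No gene named below passed the adjusted threshold in this fit, so the values describe these 10 tumours and "higher" and "lower" state a direction only. For 119 genes (0.916%) the groups did not overlap. There were 77 with every palbociclib tumour higher (0.592%) and 42 with every palbociclib tumour lower (0.323%). The vehicle tumours were the more variable group, with a median SD over genes of 0.49 against 0.32 in the palbociclib group, and the SD was larger in the vehicle group for 76.2% of genes. Vehicle tumours 2, 3 and 4 alone had a median SD of 0.31. The balance of the calls moved with scaling and method, with 478 genes higher and 108 lower at an unadjusted p under 0.05 for CPM as deposited, 352 and 538 with DESeq2, 319 and 439 with edgeR and 487 and 666 with limma-voom. The share of all genes at an unadjusted p under 0.05 was 3.33% higher and 2.3% lower without vehicle tumour 1, 5.48% and 3.9% without vehicle tumour 5, and 5.05% and 4.04% without both, and counts below that leave these tumours out compare with these shares.

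**Figure D1:**
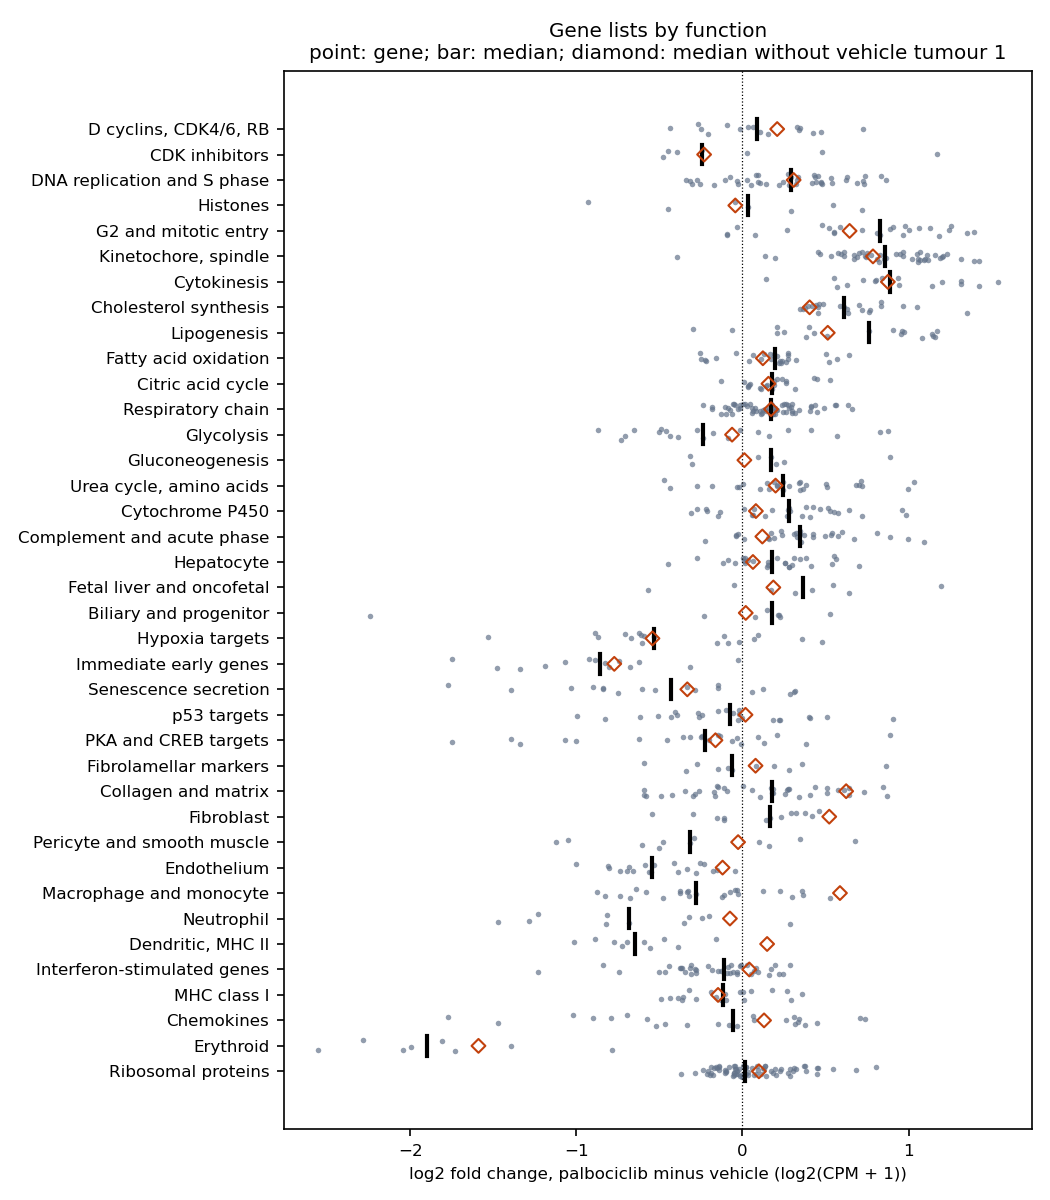
Log2 fold changes of the tested genes of 38 lists (x axis, palbociclib minus vehicle, log2(CPM + 1)), with each gene as a point, the list median as a black bar and the median without vehicle tumour 1 as an open diamond. The mitotic lists (medians 0.83 to 0.89) and the lists of lipid synthesis (0.61 and 0.76) lie to the right of 0, and the erythroid (-1.90) and immediate early (-0.86) lists to the left, while the diamonds of macrophage, dendritic cell and matrix genes lie far from their bars.

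The direct drug target and its partners differed little. Ccnd1, the gene of cyclin D1, which is the main partner of CDK4 in liver, was at 139, 60.2, 80.7, 114 and 39.5 CPM in vehicle tumours 1 to 5 and at 94.7, 131, 149, 113 and 184 CPM in palbociclib tumours 1 to 5. The ranges overlapped, with vehicle tumours 1 and 4 among the palbociclib values, and the fold change was 0.72 ± 0.30 (unadjusted p = 0.0314). It was the only 1 of 16 genes in the list of D cyclins, CDK4/6 and RB family members at an unadjusted p under 0.05 (background 3.13%). Ccnd1 was no longer at that p without vehicle tumour 2 or 5, or without palbociclib tumour 2, 3 or 5. Cdk4 lay between 43.0 and 72.3 CPM in the vehicle tumours and between 43.4 and 51.0 CPM in the palbociclib tumours (-0.21 ± 0.17). Cdk6 lay between 3.83 and 8.29 CPM and between 3.55 and 8.85 CPM (0.03 ± 0.30), and its sign changed when single tumours were left out. Rb1, which encodes RB, had a fold change of -0.44 ± 0.33, and the highest of its 10 values, 15.0 CPM, was in vehicle tumour 1. Rbl1, the gene of the RB relative p107, and Ccne1, the gene of cyclin E1, both E2F targets, had 0.43 ± 0.28 and 0.48 ± 0.35. The median over the 16 genes was 0.09, against 0.01 over all genes tested.

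Among the genes of CDK inhibitor proteins, 3 of 7 were higher and 1 of these was at an unadjusted p under 0.05 (background 3.13%). That gene was Cdkn2d, which encodes the CDK4/6 inhibitor p19, at 9.14, 4.099, 6.19, 1.97 and 0 CPM in the vehicle tumours and 6.41, 10.9, 11.9, 8.23 and 5.06 CPM in the palbociclib tumours (1.17 ± 0.52, unadjusted p = 0.0432). The value of 0 belongs to the shallow vehicle tumour 5. Cdkn2c, the gene of the inhibitor p18, was at 8.70 to 14.4 CPM against 13.0 to 19.97 CPM (0.48 ± 0.23). Cdkn1a, the p53 target that encodes p21, had 198, 446, 302, 229 and 205 CPM in the vehicle tumours and 235, 214, 175, 235 and 258 CPM in the palbociclib tumours. Its fold change was -0.24 ± 0.22, with overlapping ranges. Cdkn2a, which encodes p16 and p19ARF, was at 7.67 to 13.9 against 4.78 to 11.3 CPM (-0.40 ± 0.27).

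Genes of DNA replication and S phase leaned upward. Of 48 genes 43 passed the filter on low values, 33 of the 43 were higher, and 6 were at an unadjusted p under 0.05, all of them higher (background 3.13%). The list median was 0.29, and it lay between 0.09 and 0.41 under all 22 alternative settings. The mean log2 level of the list was 3.49, 3.15, 3.52, 2.78 and 3.28 in the vehicle tumours and 3.46, 3.70, 3.55, 3.50 and 3.34 in the palbociclib tumours. The groups overlapped, and the lowest 3 values were those of vehicle tumours 4, 2 and 5. Rrm2, the regulatory subunit of ribonucleotide reductase, which makes deoxynucleotides, was at 15.0, 19.1, 26.3, 8.14 and 22.2 CPM against 40.8, 40.7, 29.5, 24.9 and 23.3 CPM (0.83 ± 0.29, unadjusted p = 0.0129). Gins1, a subunit of the replicative helicase, was the only member without overlap, at 3.22 to 5.61 CPM against 6.41 to 11.3 CPM (0.74 ± 0.25). Pole, the catalytic subunit of DNA polymerase epsilon, had 0.87 ± 0.30, and Tyms, thymidylate synthase, had 0.73 ± 0.32. Of the 7 histone genes tested, 4 were higher, with a median of 0.03.

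Genes that act later, from G2 to the end of mitosis, had larger fold changes. All 25 genes of G2 and mitotic entry were tested, 22 were higher and 13 were at an unadjusted p under 0.05, with a median of 0.83. Among 46 genes of the kinetochore, spindle and checkpoint 45 were higher and 31 were at an unadjusted p under 0.05, with a median of 0.86. All 16 cytokinesis genes were higher, 9 of them at an unadjusted p under 0.05, with a median of 0.89. The 3 lists hold 85 different genes, since Prc1 and Kif14 stand in 2 of them, and each count compares with 3.13% of all genes tested. No member of the 3 lists was lower at an unadjusted p under 0.05. When single tumours were left out the kinetochore count ran from 15 without palbociclib tumour 3 to 35 without vehicle tumour 5, with 45 of 46 genes higher each time. In bulk tumours more dividing cells and more RNA per dividing cell cannot be told apart.

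Promoter motifs of these genes and of the S phase genes were counted in 300-base RefSeq windows (250 bases before to 50 after an annotated start, build GRCm38.p6, both strands, any window of a gene). Windows were found for 72 of the 85 mitotic genes, 36 of the 48 S phase genes, 15 of 23 cholesterol genes and 14 of 19 lipogenesis genes. The CHR, searched as TTTGAA or TTCGAA, was in 49 of the 72 mitotic genes (68.1%), in 6 of the 36 S phase genes (16.7%) and in 21.7% of all 27025 genes with a window. An E2F site, searched as TTTCGCGC, TTTGGCGC, TTTCCCGC or TTTGCCGC, was in 15 of 36 S phase genes (41.7%), 7 of 72 mitotic genes (9.72%) and 2.6% of all genes. CCAAT was in 52 of 72 mitotic genes (72.2%), in 23 of 36 S phase genes (63.9%) and in 41.1% of all genes, so that the lists lay far apart for the CHR and the E2F site and close together for CCAAT. These counts rest on the lists, not on the expression values, and a match is a stretch of letters and not a shown binding site. The 120 bases before the start of 3 mitotic genes and of Gins3, the S phase gene with the smallest p among those with an E2F match in that stretch, are shown as examples, with all CHR, CCAAT (or its reverse complement ATTGG) and E2F matches in capitals. Gins3 was picked by this match and is shown for its promoter only.
Prc1, chr7:80294356-80294475, plus strand: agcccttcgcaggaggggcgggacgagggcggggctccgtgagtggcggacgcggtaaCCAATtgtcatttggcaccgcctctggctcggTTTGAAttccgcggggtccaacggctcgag
Cdk1, chr10:69352913-69353032, minus strand: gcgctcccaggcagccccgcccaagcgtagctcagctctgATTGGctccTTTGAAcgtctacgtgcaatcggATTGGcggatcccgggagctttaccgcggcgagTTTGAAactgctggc
Ccnb1, chr13:100786487-100786606, minus strand: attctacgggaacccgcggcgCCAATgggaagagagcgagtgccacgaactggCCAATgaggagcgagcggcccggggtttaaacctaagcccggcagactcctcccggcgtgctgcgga
Gins3, chr8:95633439-95633558, plus strand: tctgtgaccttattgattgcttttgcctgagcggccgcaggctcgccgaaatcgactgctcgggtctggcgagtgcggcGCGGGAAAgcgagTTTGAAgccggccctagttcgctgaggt

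The Cdk1 stretch holds 2 CHR and 2 CCAAT matches and the Prc1 stretch 1 of each. In the Ccnb1 stretch there are 2 CCAAT matches and no CHR of the letters searched. The Gins3 stretch holds 1 E2F match and 1 CHR match, so Gins3 is among the 6 S phase genes with CHR letters.

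Kif20a, a kinesin of the central spindle needed for cytokinesis, had the smallest p of all genes. It was at 3.15, 4.51, 9.78, 5.44 and 4.60 CPM in the vehicle tumours and at 14.0, 18.2, 29.5, 14.4 and 12.6 CPM in the palbociclib tumours. Every palbociclib tumour lay above every vehicle tumour, with a fold change of 1.54 ± 0.31 (unadjusted p = 0.0002, adjusted p = 0.912). Its exons overlap those of Cdc23 on the opposite strand, and whether counting used the strand is not given in the sources used here. Aurkb, the kinase of the chromosomal passenger complex, was at 5.79, 7.74, 7.32, 2.90 and 9.58 CPM against 14.4, 15.0, 14.9, 15.5 and 11.9 CPM (1.07 ± 0.28), again without overlap. Prc1, which bundles microtubules of the central spindle, was at 8.89, 17.1, 32.8, 11.6 and 24.5 CPM against 39.9, 61.2, 70.4, 30.0 and 32.2 CPM (1.32 ± 0.34), with vehicle tumour 3 inside the palbociclib range.

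The kinase that drives mitotic entry followed the same order of groups. Cdk1 was at 10.2, 11.8, 20.7, 5.52 and 21.8 CPM in the vehicle tumours and at 23.9, 46.1, 36.0, 25.7 and 23.4 CPM in the palbociclib tumours (1.19 ± 0.33), without overlap. Its partner Ccnb1, cyclin B1, was at 7.65, 7.15, 24.1, 5.32 and 19.2 CPM against 29.1, 39.2, 45.1, 17.3 and 26.5 CPM (1.39 ± 0.39), where palbociclib tumour 4 lay under vehicle tumours 3 and 5. Foxm1, a transcription factor of mitotic genes, had 1.35 ± 0.40, and the spindle kinesins Kifc1 and Kif14 had 1.23 ± 0.33 and 1.42 ± 0.39. Ckap2l, a spindle protein, had 1.31 ± 0.38. Kif14 did not overlap between groups, but its values of 0.0806 and 0.767 CPM in vehicle tumours 4 and 5 are under 3 reads. Pif1, a DNA helicase, was in neither list and also did not overlap, at 1.55 to 8.43 against 11.9 to 21.1 CPM (1.50 ± 0.35).

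Mki67, the gene of the proliferation marker Ki-67, was at 42.3, 47.1, 71.5, 12.5 and 63.6 CPM in the vehicle tumours and at 51.8, 67.0, 104, 48.3 and 46.6 CPM in the palbociclib tumours. The groups overlapped, with vehicle tumour 4 the lowest of all, and the fold change was 0.55 ± 0.39 (unadjusted p = 0.183). The mean level of the 46 kinetochore and spindle genes showed where the groups met, at 2.76, 2.96, 3.56, 2.32 and 3.46 in the vehicle tumours and 3.74, 4.07, 4.41, 3.45 and 3.65 in the palbociclib tumours. Palbociclib tumours 4 and 5 lay level with vehicle tumours 3 and 5, and palbociclib tumour 3 was highest. Vehicle tumour 1, the library rich in mitochondrial and macrophage reads, was not the lowest. Without vehicle tumours 1 and 5 the counts at an unadjusted p under 0.05 were 13 of 25, 35 of 46 and 11 of 16 for the 3 lists, all higher (background 5.05%), with medians of 0.78, 0.91 and 0.94. The difference between the S phase and the mitotic medians was not tested.

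**Figure D2:**
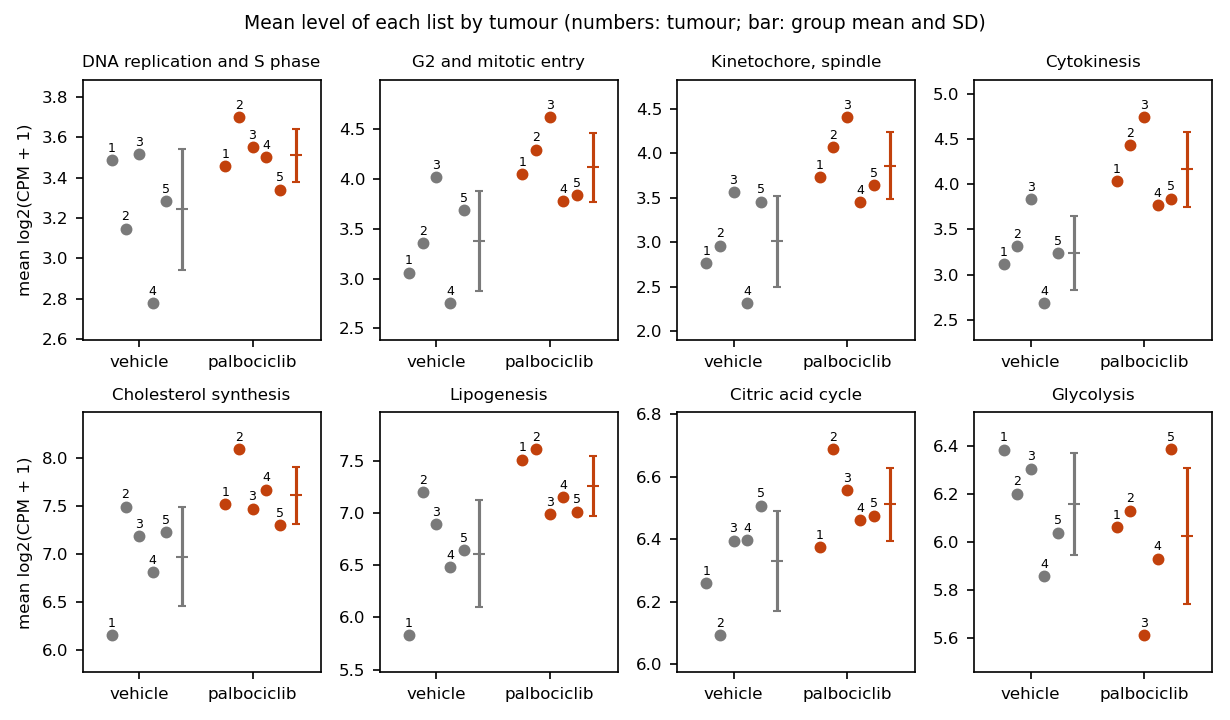
Mean log2(CPM + 1) of the tested members of 8 lists in each tumour (y axis, each panel on its own scale), vehicle tumours in grey and palbociclib tumours in orange, numbered 1 to 5, with the group mean and SD beside them. In all 8 panels the groups overlap, and in the kinetochore panel the palbociclib tumours run from 3.45 to 4.41 and the vehicle tumours from 2.32 to 3.56.

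The second group of genes that leaned upward makes lipids. All 23 genes of cholesterol synthesis and uptake were higher, 12 of them at an unadjusted p under 0.05 (background 3.13%), with a median of 0.61 and 3 without overlap (background 0.592%). Of 19 lipogenesis genes 17 were higher, 10 at an unadjusted p under 0.05 and 4 without overlap, with a median of 0.76. Vehicle tumour 1 was the lowest library in both lists, with a mean log2 level of 6.16 against 6.81 to 7.50 in the other vehicle tumours for the cholesterol list, and 5.83 against 6.48 to 7.20 for the lipogenesis list. Without it the medians were 0.40 and 0.51, with 23 of 23 and 15 of 19 genes higher. At an unadjusted p under 0.05 there were then 8 and 9 genes higher (background 3.33%), and 1 lipogenesis gene was lower (background 2.3%). Without vehicle tumours 1 and 5 they were 0.46 and 0.39, with 11 and 6 such genes (background 5.05%).

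Promoters of the cholesterol genes with a window all held CCAAT (15 of 15), as did 10 of 14 lipogenesis promoters. SREBP sites, searched as TCACNCCAC, were in 1 of 15, 1 of 14 and 1.44% of all genes. The 120 bases before the start of Idi1 and Nsdhl, both without overlap between the groups, carry CCAAT in reverse complement, in capitals.
Idi1, chr13:8885486-8885605, plus strand: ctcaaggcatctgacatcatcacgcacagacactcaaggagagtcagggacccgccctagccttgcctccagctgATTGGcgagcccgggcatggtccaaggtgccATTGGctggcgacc
Nsdhl, chrX:72918401-72918520, plus strand: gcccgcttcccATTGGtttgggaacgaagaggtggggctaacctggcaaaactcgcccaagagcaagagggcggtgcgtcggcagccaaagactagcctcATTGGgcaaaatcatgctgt

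Idi1, an isomerase early in cholesterol synthesis, was at 24.6, 50.3, 66.2, 64.9 and 52.5 CPM in the vehicle tumours and at 90.8, 111, 104, 109 and 73.8 CPM in the palbociclib tumours (0.97 ± 0.25), with every palbociclib value above the highest vehicle value. Nsdhl, a sterol dehydrogenase, was at 72.2 to 144 CPM against 149.7 to 273 CPM (0.83 ± 0.23). Dhcr7, a reductase of the last step of the pathway, had 1.05 ± 0.34 with vehicle tumour 2 inside the palbociclib range.

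Elovl6, which elongates palmitate, was at 16.7, 26.2, 28.6, 32.5 and 24.1 CPM in the vehicle tumours and at 67.8, 45.0, 52.6, 37.3 and 49.9 CPM in the palbociclib tumours (0.96 ± 0.21, unadjusted p = 0.000549). Fads2, a desaturase of polyunsaturated fatty acids, was at 73.4, 219.9, 187, 186 and 153 CPM against 360.3, 483, 367, 311 and 233 CPM (1.15 ± 0.28). Acaca, the acetyl-CoA carboxylase that commits carbon to fatty acids, was at 27.5 to 79.8 CPM against 90.3 to 201 CPM (0.96 ± 0.30). None of the 3 overlapped, and in each of them vehicle tumour 1 was the lowest. Scd1, the stearoyl-CoA desaturase, was at 1892, 5745, 4183, 2269 and 2588 CPM against 8823, 14560.5, 4363, 5305 and 4991 CPM (1.16 ± 0.41), where vehicle tumour 2 lay above 3 palbociclib tumours. Fads1, the partner desaturase of Fads2, had 0.76 ± 0.21.

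**Figure D3:**
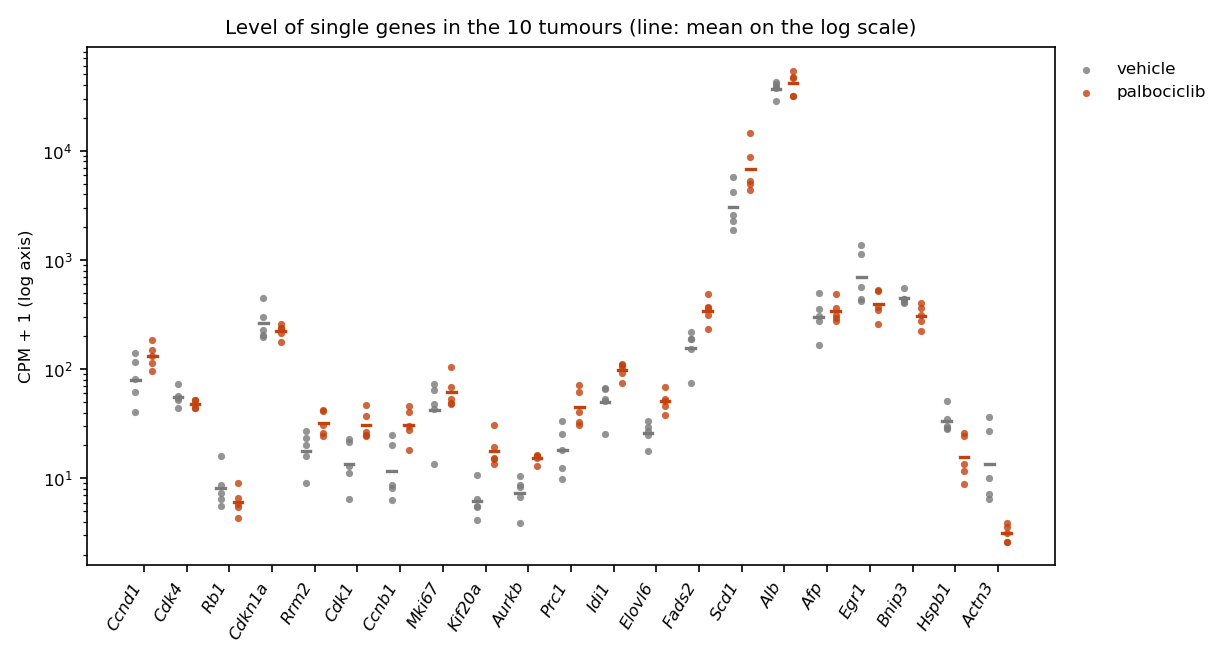
CPM + 1 (log axis) of 21 single genes in the 5 vehicle (grey) and 5 palbociclib (orange) tumours, with a line at the mean on the log scale. Kif20a, Aurkb, Cdk1, Idi1, Elovl6 and Fads2 lie apart with the palbociclib tumours higher, Hspb1, Bnip3 and Actn3 with them lower, and Cdk4, Cdkn1a, Alb and Afp overlap.

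Genes of energy metabolism had small fold changes in the comparison of all 10 tumours. Of 21 genes of the citric acid cycle and pyruvate oxidation 20 were higher, 3 at an unadjusted p under 0.05 (background 3.13%), with a median of 0.18. Ogdh, a subunit of 2-oxoglutarate dehydrogenase, was at 107, 141, 126, 158 and 119.97 CPM in the vehicle tumours and 168, 191, 173, 174 and 169.7 CPM in the palbociclib tumours (0.43 ± 0.15). Pdha1, a subunit of pyruvate dehydrogenase, was at 30.3 to 57.4 CPM against 62.5 to 72.9 CPM (0.53 ± 0.19), and neither gene overlapped. Nuclear genes of the respiratory chain had a median of 0.17 with 50 of 65 higher, 1 of them at an unadjusted p under 0.05 (background 3.13%). Fatty acid oxidation genes had a median of 0.20 with 22 of 28 higher, 3 of them at that p (background 3.13%). The respiratory chain result turned on single vehicle tumours. Its median was -0.02 with 31 of 65 genes higher without vehicle tumour 2, and 0.33 with 64 of 65 higher, 21 of them at an unadjusted p under 0.05 (background 5.48%), without vehicle tumour 5. Without vehicle tumours 1 and 5 it was 0.43, with 64 higher and 27 at an unadjusted p under 0.05 (background 5.05%). For fatty acid oxidation the count of 3 higher genes at that p became 8 without vehicle tumour 5 (background 5.48%) and 0 without vehicle tumour 1 (background 3.33%).

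Of 21 glycolysis genes 7 were higher and the median was -0.24. At an unadjusted p under 0.05 there were 1 higher and 2 lower (backgrounds 3.13% and 2.15%). Pklr, the pyruvate kinase of liver, was higher, at 27.4, 59.4, 81.7, 47.4 and 61.3 CPM against 142, 80.8, 88.4, 76.7 and 90.7 CPM (0.83 ± 0.26), with vehicle tumour 3 above 2 palbociclib tumours. Gpi1, glucose-6-phosphate isomerase, was lower, at 599, 829, 683, 461 and 788 CPM against 543, 340.5, 278, 281 and 677 CPM (-0.73 ± 0.27). Without vehicle tumours 1 and 5 the glycolysis median was 0.08. The 19 hypoxia targets, which share glycolytic enzymes with that list, had a median of -0.53. Of them 15 were lower, with 5 lower (background 2.15%) and 0 higher at an unadjusted p under 0.05. The 5 became 2 without vehicle tumour 2 or 3 and without palbociclib tumour 2, 3 or 4, where 151 to 257 of all genes tested were lower at that p. They became 4 without palbociclib tumour 1 and 3 without vehicle tumour 5. They became 6 without vehicle tumour 1 or 4, 7 without palbociclib tumour 5 and 8 without vehicle tumours 1 and 5, where 294 to 518 of all genes tested were lower. Bnip3, a mitophagy receptor induced by hypoxia, was at 434, 414, 548, 406 and 439.6 CPM against 403, 275, 222, 312 and 360.1 CPM (-0.53 ± 0.19) without overlap. Ankrd37, another hypoxia target, had -0.89 ± 0.29. Palbociclib tumour 5 had a mean log2 level of hypoxia targets of 6.34, inside the vehicle range of 5.64 to 6.50, while palbociclib tumour 3 was lowest with 5.01.

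Liver identity was present in every tumour. Alb, the gene of albumin, was at 28602, 38377, 37562, 42352 and 40429 CPM in the vehicle tumours and at 31409, 54213, 46401, 47604 and 31850.1 CPM in the palbociclib tumours (0.15 ± 0.55), with overlapping groups. Of 28 hepatocyte genes 23 were higher, 0 at an unadjusted p under 0.05 (6 without vehicle tumour 5, background 5.48%), with a median of 0.18 that became 0.06 without vehicle tumour 1, the lowest library of this list. Of 30 complement and acute phase genes tested 26 were higher, 4 at an unadjusted p under 0.05 (background 3.13%), with a median of 0.35. Without vehicle tumour 1 the median was 0.12 and 2 of 30 were at that p (background 3.33%). C8b, a subunit of the complement attack complex, was at 9.87 to 24.5 CPM against 21.6 to 36.8 CPM (0.89 ± 0.27), and Mbl2, a mannose-binding lectin, had 0.81 ± 0.35. Urea cycle and amino acid catabolism genes had a median of 0.24 with 23 of 29 higher, cytochrome P450 genes 0.28 with 23 of 29, and gluconeogenesis genes 0.17 with 5 of 7. Without vehicle tumour 1 the last of these was 0.01 and that of cytochrome P450 genes 0.08.

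Of 8 fetal liver and oncofetal genes tested, among 15 in the list, 6 were higher and 2 of them were at an unadjusted p under 0.05 (background 3.13%), with a median of 0.37 that was positive under all 22 alternative settings. Without vehicle tumour 1, 5 of 8 were higher and 1 was at that p, with a median of 0.19. Afp, the gene of alpha-fetoprotein, was at 165 to 497 CPM in the vehicle tumours and 276 to 484 CPM in the palbociclib tumours (0.17 ± 0.26), with -0.05 when vehicle tumour 1 was left out. Igf2, a fetal growth factor, was at 4333, 11878, 10561, 14802 and 4548 CPM against 10636, 29051, 18478, 34747 and 11608 CPM (1.20 ± 0.52, unadjusted p = 0.0371), where 2 palbociclib tumours lay within the vehicle range. Golm1, a Golgi protein raised in liver cancer, had 0.64 ± 0.22. Prkaca, of which the fusion holds the catalytic part, was at 42.5 to 77.6 CPM against 53.4 to 81.9 CPM (0.08 ± 0.19), and Dnajb1 at 60.6 to 113 CPM against 36.1 to 122 CPM (-0.34 ± 0.27). These counts do not separate fusion transcripts from those of the normal genes. Of 11 fibrolamellar carcinoma markers tested 5 were higher (median -0.06), and of 22 PKA and CREB targets 17 were lower, 2 of them at an unadjusted p under 0.05 (background 2.15%, median -0.22). The lowest fold change of the PKA and CREB list was that of Nr4a1, which is also among the immediate early genes described below. Mean log2 levels of this list were 5.26, 5.35 and 5.19 in vehicle tumours 1 to 3. Vehicle tumours 4 and 5, at 4.39 and 4.32, lay under all palbociclib tumours (4.41 to 4.78).

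Immediate early genes, which are induced within minutes by growth factors and stress, leaned down. All 14 tested were lower, 5 at an unadjusted p under 0.05 (background 2.15%), with a median of -0.86, and 2 further members did not pass the filter on low values. Junb, a subunit of AP-1, was at 757, 1052, 802, 262 and 585 CPM in the vehicle tumours and at 299, 247, 117, 382 and 477 CPM in the palbociclib tumours (-1.19 ± 0.40). Nr4a1, a nuclear receptor, was at 145, 42.1, 82.2, 11.4 and 21.5 CPM against 6.98, 11.7, 4.78, 31.8 and 17.0 CPM (-1.75 ± 0.61), and Ier2 and Egr1 had -0.89 ± 0.30 and -0.83 ± 0.34. Vehicle tumours 1, 2 and 3 were high and vehicle tumours 4 and 5 lay among the palbociclib values, with mean list levels of 6.96, 6.70, 6.60, 5.30 and 5.12 against 4.79, 5.26, 4.28, 5.97 and 5.88. The same 3 vehicle tumours had the highest levels of erythroid genes. The part of tissue handling or of blood in this difference was not tested.

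Secreted factors of senescent cells, of interest because CDK4/6 inhibition can cause senescence, had a median of -0.43 over 18 genes tested. Of these 13 were lower, and at an unadjusted p under 0.05 there were 3 lower (background 2.15%) and 0 higher, or 6 lower and 1 higher without vehicle tumours 1 and 5 (backgrounds 4.04% and 5.05%). Areg, the growth factor amphiregulin, was at 18.5, 48.4, 25.1, 20.8 and 12.3 CPM against 12.2, 5.90, 4.66, 5.67 and 16.0 CPM (-1.39 ± 0.38, unadjusted p = 0.00271), with palbociclib tumour 5 inside the vehicle range. Of 24 p53 targets 7 were higher, with a median of -0.08.

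**Figure D4:**
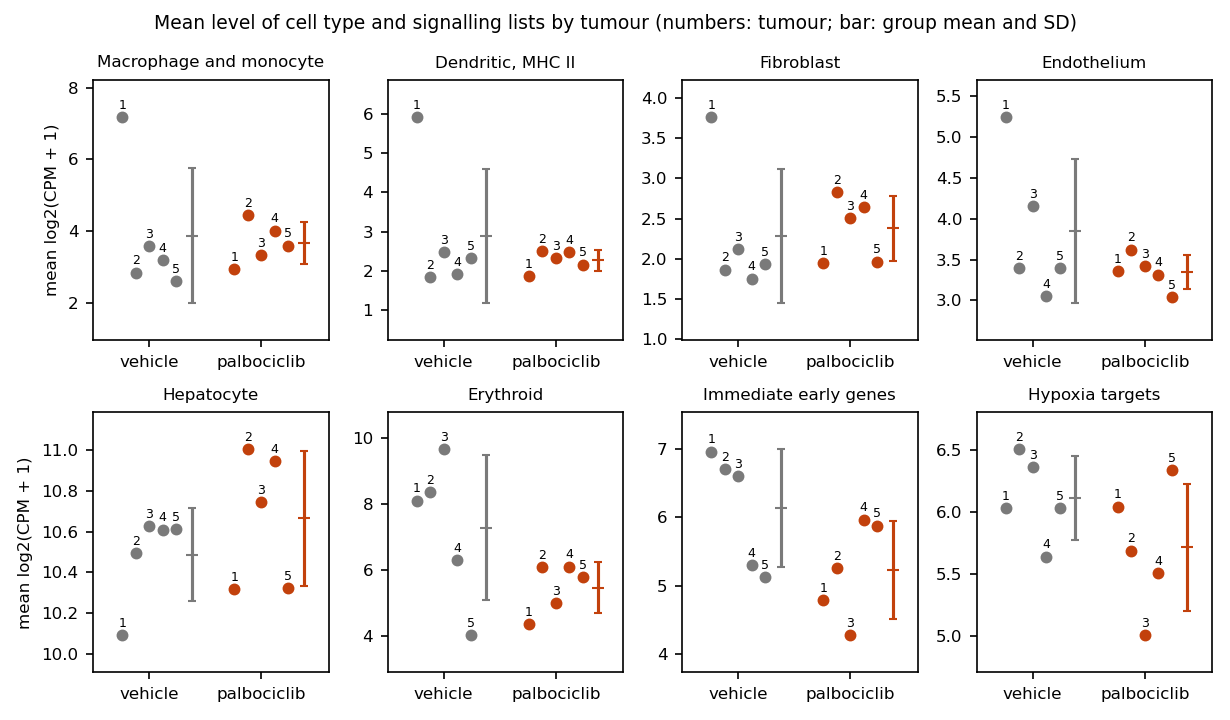
Mean log2(CPM + 1) of 8 lists of cell types and signalling in each tumour (y axis, each panel on its own scale), vehicle in grey and palbociclib in orange, numbered 1 to 5, with group mean and SD. Vehicle tumour 1 stands alone at the top of the macrophage (7.18), dendritic cell, fibroblast and endothelium panels and at the bottom of the hepatocyte panel (10.1), and vehicle tumours 1 to 3 are the 3 highest in the erythroid panel.

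Matrix and fibroblast genes gave no calls in the comparison of all 10 tumours and leaned upward when vehicle tumour 1 was left out. Of 38 collagen and matrix genes tested 23 were higher and 0 reached an unadjusted p under 0.05 in either direction, with a median of 0.17. Col1a1, the main collagen of stroma, was at 134, 18.0, 55.3, 17.2 and 9.58 CPM in the vehicle tumours and at 24.8, 93.0, 33.4, 83.8 and 21.7 CPM in the palbociclib tumours (0.51 ± 0.62). Vehicle tumour 1 was the highest for Col1a1, and palbociclib tumours 2 and 4 came next. Without vehicle tumour 1 the median of the list was 0.62, with 28 of 36 genes higher and 7 at an unadjusted p under 0.05 (background 3.33%). With vehicle tumours 1 and 5 both left out, 29 of 36 were higher and 5 at an unadjusted p under 0.05 (background 5.05%), and without vehicle tumour 5 alone the median was -0.02. Fibroblast markers likewise had a median of 0.17 over 13 genes tested. Without vehicle tumour 1 only 9 passed the filter on low values, with a median of 0.52 and 8 higher. In both settings 0 were at an unadjusted p under 0.05. The fibroblast median was -0.15 with DESeq2 and -0.14 with edgeR, and 5 of 22 alternative settings turned its sign.

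Endothelial genes were all lower in the group comparison, with 0 of 20 at an unadjusted p under 0.05 and a median of -0.54. Pecam1, the adhesion molecule CD31, was at 99.0, 49.0, 51.7, 28.0 and 18.4 CPM in the vehicle tumours and at 32.5, 34.4, 32.9, 34.7 and 23.8 CPM in the palbociclib tumours (-0.41 ± 0.35). Kdr, the VEGF receptor 2, had -0.73 ± 0.36, and Cdh5, the cadherin of vessels, -0.81 ± 0.39. Vehicle tumour 1 was the highest for all 3 genes. Without it the median was -0.12 with 5 of 19 genes higher. Without vehicle tumours 1 and 5 the median was -0.31 with 4 of 19 higher, and 1 gene was lower at an unadjusted p under 0.05 (background 4.04%). Without vehicle tumour 4 there were 5 genes lower at that p, as were 448 of all 13032 genes tested in that setting. Of 11 pericyte and smooth muscle genes 7 were lower, 2 of them at an unadjusted p under 0.05 (background 2.15%), with a median of -0.32 that became -0.03 without vehicle tumour 1.

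Myeloid genes turned on vehicle tumour 1. The 25 macrophage and monocyte genes tested had a median of -0.28 with 6 higher, and 1 of the lower genes was at an unadjusted p under 0.05 (background 2.15%). When vehicle tumour 1 was left out the median was 0.59 with 21 of 25 higher, 9 higher and 1 lower at an unadjusted p under 0.05 (backgrounds 3.33% and 2.3%). These counts were 6 and 1 without vehicle tumours 1 and 5 (backgrounds 5.05% and 4.04%). Csf1r, the receptor for macrophage growth factor, was at 236, 7.93, 10.9, 6.97 and 1.53 CPM in the vehicle tumours and at 4.89, 16.8, 5.18, 14.7 and 8.53 CPM in the palbociclib tumours. C1qa, a complement subunit made by macrophages, was at 757, 12.3, 34.2, 29.4 and 44.1 CPM against 17.2 to 48.3 CPM, and Cd68, a lysosomal protein of macrophages, at 212, 10.0, 18.0, 11.3 and 2.30 CPM against 9.26 to 39.9 CPM. Apart from vehicle tumour 1, the groups overlapped for each of these 3 genes. H2-Aa, an MHC class II chain, was at 267 CPM in vehicle tumour 1 and at 4.55 to 15.1 CPM in the other 9 tumours.

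S100a8, an alarmin of neutrophils, was at 106, 34.0, 87.1, 16.5 and 21.8 CPM in the vehicle tumours and at 5.70, 32.1, 21.4, 14.0 and 9.83 CPM in the palbociclib tumours (-1.47 ± 0.53). The 11 neutrophil genes tested had a median of -0.68 with 1 higher, and -0.08 with 4 of 8 higher without vehicle tumour 1. Cd3e and Ncr1, markers of T and NK cells, are not among the 17606 genes of the files. Of the 20 markers of T, B and NK cells 7 are in the files and 4 were tested. The mean log2 level of these 4 was 3.32 in vehicle tumour 1 and 0.77 to 1.05 in the other tumours. Of the 4, 3 were lower, 1 of them at an unadjusted p under 0.05 (background 2.15%).

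Medians of interferon, antigen presentation and chemokine genes all lay slightly under 0, and their signs depended on the setting. Of 40 interferon-stimulated genes 29 were lower, with a median of -0.11, and at an unadjusted p under 0.05 there were 2 lower (background 2.15%) and 0 higher. This direction turned when vehicle tumour 1 was left out, with 22 of 40 higher and a median of 0.04. Without vehicle tumours 1 and 5, 31 of 40 were higher with a median of 0.20. At an unadjusted p under 0.05 there were then 2 higher and 1 lower (backgrounds 5.05% and 4.04%). Isg15, a ubiquitin-like interferon target, was at 59.4, 26.8, 60.5, 23.6 and 36.0 CPM against 11.9, 14.3, 14.7, 13.5 and 28.2 CPM (-1.23 ± 0.30, unadjusted p = 0.00127), with palbociclib tumour 5 alone inside the vehicle range. Irf1, an interferon-induced transcription factor, had -0.74 ± 0.28. MHC class I genes had a median of -0.12 with 7 of 20 higher. At an unadjusted p under 0.05 there were 1 higher (background 3.13%) and 0 lower, and 1 higher gene was without overlap (background 0.592%). H2-Q1, an MHC class I gene outside that list, was higher (1.32 ± 0.27, unadjusted p = 0.000226). Its groups overlapped, with vehicle tumour 4 at 118 CPM and palbociclib tumour 1 at 117 CPM. Chemokines and cytokines had a median of -0.06 with 11 of 24 higher. The signs of these 3 medians were turned by 4, 3 and 6 of the 22 alternative settings.

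Erythroid genes, which mark red blood cells and their precursors, had the median farthest from 0 of the lists described, -1.90. All 8 tested genes were lower, 2 of them at an unadjusted p under 0.05 (background 2.15%). Hbb-bs, a beta-globin, was at 10620.0, 15770.2, 51501, 4056 and 306 CPM in the vehicle tumours and at 640.4, 3387, 1203, 3289.9 and 2377 CPM in the palbociclib tumours (-1.81 ± 1.04). Alas2, the haem synthesis enzyme of red cell precursors, was at 489, 437, 1808, 142 and 42.2 CPM against 28.7, 95.0, 39.9, 109.6 and 67.0 CPM (-2.28 ± 0.76). Vehicle tumours 1, 2 and 3 were high, and vehicle tumour 4 also lay above every palbociclib tumour for both genes. Vehicle tumour 5 lay low, inside or under the palbociclib range. Without vehicle tumour 5 alone all 8 genes of the list were lower at an unadjusted p under 0.05 (background 3.9%), with a median of -2.89. Without vehicle tumour 1 alone 1 was at that p (background 2.3%), with a median of -1.59. Without vehicle tumours 1 and 5 all 8 genes were lower at an unadjusted p under 0.05 (background 4.04%), with a median of -2.775. Cd24a, a surface protein of progenitor cells that also marks red cell precursors, followed the same tumours, at 48.6, 25.8, 63.3, 5.76 and 2.30 CPM against 2.39, 5.87, 0.576, 4.81 and 2.73 CPM (-2.24 ± 0.73). The other 7 biliary and progenitor genes tested included 6 that were higher. The amount of blood left in each tumour was not measured.

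Other genes without overlap belonged to no common list. Actn3, the alpha-actinin of fast muscle fibres, was at 9.14, 25.9, 35.2, 5.52 and 6.13 CPM in the vehicle tumours and at 2.61, 1.62, 2.94, 2.14 and 1.63 CPM in the palbociclib tumours (-2.11 ± 0.46, unadjusted p = 0.000416, adjusted p = 0.912). Of the other 19 skeletal muscle markers 3 passed the filter on low values, and none of the 3 was at an unadjusted p under 0.05. Rapgef3, the cAMP-activated exchange factor EPAC1, was at 20.7, 12.2, 14.1, 15.6 and 27.6 CPM against 8.01, 8.51, 6.13, 5.58 and 9.83 CPM (-1.11 ± 0.26), and its exons overlap annotated antisense genes. Hspb1, the small heat shock protein HSP27, was at 28.1, 33.7, 50.1, 29.2 and 27.2 CPM against 10.8, 12.4, 7.94, 25.1 and 23.7 CPM (-1.12 ± 0.31), with palbociclib tumours 4 and 5 just under the lowest vehicle value. The remaining 7 of the 10 lower genes with the smallest p were Ssbp4, Renbp, Smg9, Parp2, Prpf3, Slc9a3r2 and Thap3, with fold changes from -0.92 to -0.50. Smg9 acts in nonsense-mediated decay, Parp2 in DNA repair and Prpf3 in splicing.

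On the higher side, Rpl17, a protein of the large ribosomal subunit, was at 986, 829, 928, 1294 and 1093 CPM in the vehicle tumours and at 1824, 1588, 1824, 2031 and 1629 CPM in the palbociclib tumours (0.80 ± 0.20). The 77 cytosolic ribosomal protein genes tested had a median of 0.02 with 43 higher, and 2 of them were higher at an unadjusted p under 0.05 (background 3.13%). This list also turned on single vehicle tumours, with 18 of 77 higher and a median of -0.18 without vehicle tumour 2, and 66 higher, 14 at an unadjusted p under 0.05 (background 5.48%), without vehicle tumour 5. With vehicle tumours 1 and 5 both left out, 76 of 77 were higher, 19 at an unadjusted p under 0.05 (background 5.05%), with a median of 0.34. Ribosomal protein genes have near-identical processed copies in the genome, and how shared reads were counted is not given in the sources used here. Cc2d2a, a protein of the ciliary transition zone, was at 1.24, 1.73, 1.05, 1.93 and 0 CPM against 3.99, 4.33, 3.28, 4.42 and 4.53 CPM (1.31 ± 0.34), the 0 being the shallow vehicle tumour 5.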

How the data were processed

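The authors deposited CPM per gene for each tumour, per the file headers, for 17606 mouse Ensembl IDs, of which GENCODE M21 gave a symbol for 17469. The submitters' processing notes name cutadapt 2.10, HISAT2, featureCounts, DESeq2, R 4.1.2 and the build mm10, while strand use and the treatment of shared reads are not given in the sources used here. All values (100%, tolerance 0.001 reads) were whole multiples of 1 read, so reads could be recovered.

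CPM were recomputed without 17 mitochondrial genes, scaled with TMM factors (edgeR 4.0.16) and tested as log2(value + 1) with limma 3.58.1 in R 4.3.3 (trend, two-sided, Benjamini-Hochberg, threshold 0.05) over genes whose mean reached 1 CPM. On the recovered reads, edgeR called 0 genes and DESeq2 1.42.0 called 5. In data simulated with 4-fold changes the fit recovered 148 of 193 changed genes tested, and 6 of its 154 calls fell on unchanged genes. Smaller changes and a library apart such as vehicle tumour 1 were not simulated. The simulation therefore does not show how many smaller changes the fit would miss. Groups came from the treatment labels, and the p-values measure the spread between these samples, which may be technical. Replicate libraries differed beyond sampling noise (chi-square per degree of freedom at least 52.6). The floors of 3 reads cover counting error only, while the ± values are standard errors of the fit or SDs and come from the spread between tumours.

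The members and lists were chosen with earlier results of these data known, so no test over a list was made and a list is described by counts and medians. The genes named were the 10 higher and 10 lower genes with the smallest unadjusted p among those without overlap, up to 4 members of each list with the smallest p and up to 2 with the highest level, cell type markers, and genes of the CDK4/6 axis, the fusion and hepatocytes. Predicted genes were not named, which leaves 9 of the 10 higher genes, and a few genes that the rule names are not reported here. Promoter windows are from RefSeq (GRCm38.p6). The 22 alternative settings were other scaling, mitochondrial genes kept, pseudocounts of 0.1 and 5, no filter or a filter at 10 CPM, edgeR, DESeq2, limma-voom, a replicate block, and leaving tumours out.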

Additional observations from a re-analysis of the deposited data

Results flagged for a closer look

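Within each group of 5 tumours, a value was taken as standing apart when its gap to the nearest other tumour was over 71% of the range of the group (Dixon's criterion). Of 270 groups of values screened, 28 held such a tumour, where chance gives about 1 in 20, or 13.5, for independent and normally distributed values. The values screened were neither, since many are CPM of genes picked by their p and of lists that hold the same genes. The 28 and the 13.5 therefore cannot show whether tumours stood apart more often than by chance. Vehicle tumour 1 was the tumour apart in 11 of them and vehicle tumour 5 in 3.

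Vehicle tumour 1 had 46.6% of its reads on the mitochondrial genome. Its mean log2 level was 7.18 for macrophage and monocyte genes, 5.93 for dendritic cell and MHC class II genes and 3.76 for fibroblast genes, each above all other vehicle tumours, and 10.1 for hepatocyte genes and 4.92 for Wnt and beta-catenin targets, each below them. Among single genes it was highest with 236 CPM for Csf1r, 212 CPM for Cd68, 757 CPM for C1qa, 267 CPM for H2-Aa and 15.0 CPM for Rb1. In vehicle tumour 5, 12788 genes had at least 1 read, against 15382 to 16401 in the other vehicle tumours. It was lowest for biliary and progenitor genes (mean log2 level 5.09) and highest for Lef1 (37.6 CPM).

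Vehicle tumour 3 was highest for Hspb1 (50.1 CPM), Bnip3 (548 CPM), Alas2 (1808 CPM) and Nrgn (70.4 CPM), and vehicle tumour 4 for ribosome biogenesis genes (mean log2 level 5.52). Palbociclib tumour 1 was lowest for chemokines and inflammatory cytokines (mean log2 level 2.71) and highest for Pklr (142 CPM). Palbociclib tumour 2 was highest for Ogdh (191 CPM), and palbociclib tumour 3 was highest for Pdha1 (72.9 CPM) and lowest for ATF4 and endoplasmic reticulum stress genes (mean log2 level 6.55). Palbociclib tumour 5 was highest for Wnt and beta-catenin targets (mean log2 level 5.94) and Isg15 (28.2 CPM) and lowest for Rbl1 (6.53 CPM) and Pecam1 (23.8 CPM).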

How the results depend on the processing

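The count of 0 genes at an adjusted p under 0.05 held in 21 of 22 alternative settings, with smallest adjusted p values of 0.132 to 1.00, and each tumour left out in turn gave 0 calls. DESeq2 called 5 genes: Kif20a, Rpl17 and H2-Q1 higher and Actn3 and Nrgn lower. Nrgn, and H2-Q1, an MHC class I gene with close relatives whose counting is uncertain, were named after their values were seen. With the replicate number as a block, which rests on shared numbers only (correlations of same-numbered tumours from -0.31 to 0.002), 0 genes were called and 573 reached an unadjusted p under 0.05. That count of 687 was 1223 without vehicle tumour 5, 1165 without vehicle tumours 1 and 5, 1153 with limma-voom quality weights and 403 without palbociclib tumour 3. Of it, the lower genes were 280, and 448 without vehicle tumour 4. CPM as deposited shifted the median of all genes to 0.14 and the share of higher genes from 51.0% to 68.8%, DESeq2 gave 42.6% and edgeR 44.7% higher. The medians of the S phase, mitotic, cholesterol, lipogenesis, immediate early, hypoxia and erythroid lists kept their sign in all 22 settings.

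The mitochondrial share difference of -7.07 percentage points ranged from -9.61 to 1.73 when tumours were left out, the latter without vehicle tumour 1. Of 85 named genes 79 kept their direction. Cdk6 ranged from -0.11 to 0.20 when single tumours were left out and was -0.067 without vehicle tumours 1 and 5. Prkaca ranged from -0.061 to 0.17 and was -0.064 there. Afp ranged from -0.045 to 0.35 and was -0.011 with limma-voom. Csf1r ranged from -1.09 to 0.55 and was 0.071 without vehicle tumours 1 and 5. C1qa ranged from -1.25 to 0.21 and was 0.43 there. Cd68 ranged from -0.25 to 1.25 and was -1.10 with DESeq2 and -1.07 with edgeR. The causes were not tested. With 2.96 M reads in vehicle tumour 5, genes near 1 CPM are not measured there.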

Other observations

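Further lists, some of which share genes with the lists above, held no gene past the adjusted threshold. Of 24 nucleotide synthesis genes 15 were higher, with 4 at an unadjusted p under 0.05 (background 3.13%) and a median of 0.12. The largest fold change of this list was that of Rrm2, described above with the S phase genes. Of 20 ribosome biogenesis genes 11 were higher (median 0.15), led by Polr1a, the large subunit of RNA polymerase I, with a fold change of 0.60 ± 0.24. Of 26 NRF2 and glutathione genes 14 were higher (median 0.06), and 4 of 22 settings turned that sign. Of 20 genes of ATF4 and endoplasmic reticulum stress 8 were higher (median -0.08). The lower members at an unadjusted p under 0.05 (background 2.15%) were Cebpb (-0.73 ± 0.30) and Ppp1r15a (-1.01 ± 0.44).

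Of 16 Wnt and beta-catenin targets 11 were higher (median 0.23), and the largest fold change was that of Ccnd1, described above with the D cyclins. Lef1, a transcription factor of that pathway, had a fold change of -0.92 ± 0.34 with vehicle tumour 5 as its highest value. Of 13 TGF-beta targets 3 were higher (median -0.46), among them none at an unadjusted p under 0.05. Of 14 YAP and TEAD targets 5 were higher (median -0.23). Cidec, a lipid droplet protein of fat and fatty liver, was at 0 to 2.62 CPM in the vehicle tumours and 2.45 to 7.05 CPM in the palbociclib tumours (1.14 ± 0.40, unadjusted p = 0.0135), while Adipoq and Plin1, which define fat cells, did not pass the filter or are not among the genes of the files.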
